A study of Mus musculus with 24 samples.

Results

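The comparison described here sets 4 libraries of female mice with a T-bet deletion in regulatory T cells against 4 libraries of control females, 8 of the 24 libraries of the series. They were chosen by their column names in the deposited count table, and all genes of that table entered the fit. Knockouts have the genotype TbetFoxp3cre: T-bet, a transcription factor encoded by Tbx21, is removed wherever Foxp3 drives Cre recombinase. Controls have the genotype Foxp3cre, so both groups carry the Foxp3 Cre. Foxp3 is the lineage factor of regulatory T cells, so other cells of the tissue keep Tbx21. The tissue was whole visceral (perigonadal) fat of mice 27 to 33 weeks old, profiled by RNA sequencing. Males of both genotypes and mice of both sexes with the genotype PpargFoxp3cre, in which Pparg is deleted in the same cells, make up the rest of the series. Replicates are numbered 1 to 4 here by the descriptions. The titles, which number only 1 and 2 within each batch, place replicates 1 and 3 in batch 1 and replicates 2 and 4 in batch 2. Nothing in the labels ties each library to a separate animal, so the p-values measure the spread between libraries.

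Regulatory T cells restrain immune responses, and visceral fat holds a resident population of them that is known to influence local inflammation and the response to insulin. T-bet directs type 1 immunity, the arm that uses interferon gamma, and a subset of regulatory T cells expresses it. Adipocytes make fatty acids from glucose by de novo lipogenesis: citrate leaves the mitochondrion, is split to acetyl-CoA, and is carboxylated, elongated and desaturated with electrons from NADPH. Interferon gamma raises the genes of antigen presentation and of the guanylate-binding proteins in many cell types.

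Totals ran from 14250142 to 30769949 counts in controls and from 8345575 to 25882749 in knockouts. The 2 shallowest libraries were knockout replicates 2 and 4, both of batch 2. Control replicate 1 stood apart from every other library. Its summed level of 18 motile cilia genes was 1582 CPM (counts relative to the library total after scaling by the trimmed mean of M values, TMM), against 19.7 to 29.8 in the other controls and 14.9 to 16.9 in knockouts. Its epithelial marker sum was 1579 CPM against 53.2 to 92.2 in the other controls, and its adipocyte marker sum was the lowest of the 8, 8820 CPM. The source name of this library also gives a different number and batch than its title, which was followed here. Adipocyte markers were present in every library, with Adipoq, the adipocyte hormone adiponectin, from 659 to 3873 CPM. Tbx21 was 0.986, 1.27, 0.441 and 1.05 CPM in control replicates 1 to 4 and 2.64, 1.17, 0.659 and 0.909 CPM in knockout replicates 1 to 4. Foxp3 lay between 0.126 and 0.915 CPM in all 8. Neither passed the test (log2 fold changes of 0.65 and 0.79, adjusted p = 0.693 and 0.597, edgeR's quasi-likelihood test), and at these levels in whole fat, where other lymphocytes express Tbx21, they do not check the genotype labels.

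**Figure D1:**
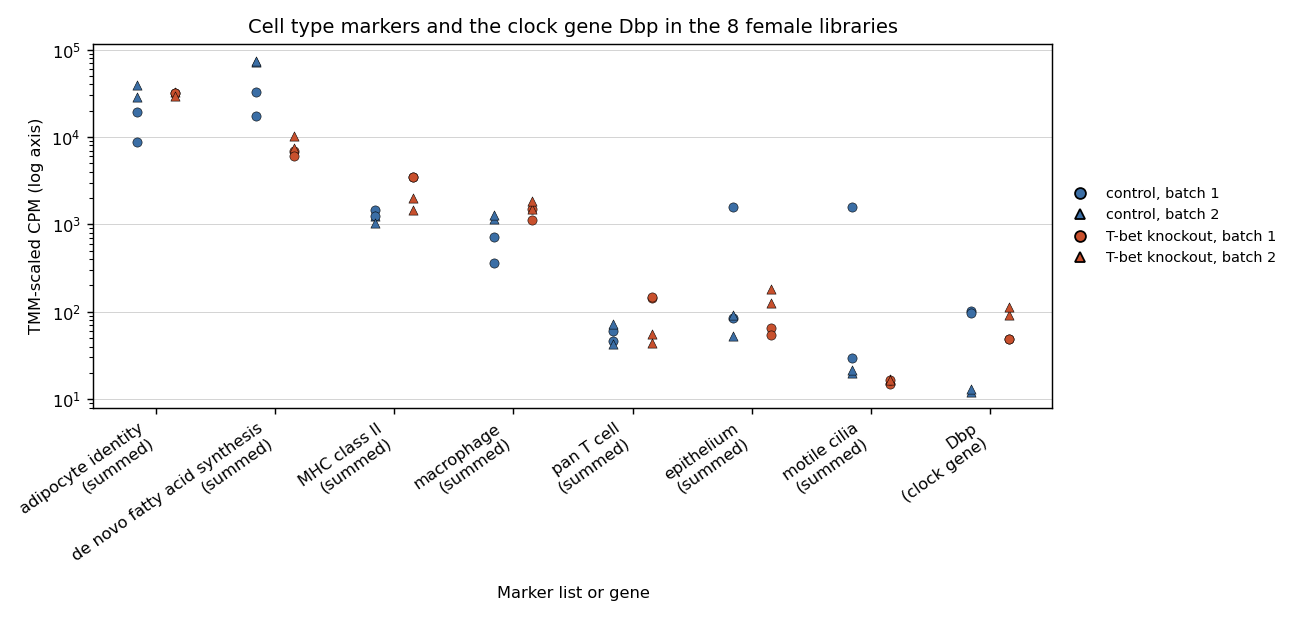
Summed level of each marker list, and the level of the clock gene Dbp, in the 8 libraries (TMM-scaled CPM, log axis; each point is 1 library, circles batch 1, triangles batch 2). One control library of batch 1 stands out in epithelium and motile cilia at 1579 and 1582 CPM, fatty acid synthesis is lower in all 4 knockouts, and Dbp goes in opposite directions in the 2 batches.

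In knockout fat, 14 of 16 genes of fatty acid synthesis fell, with 10 of 20 of cholesterol synthesis, 6 of 20 of glycolysis and pyruvate use and 3 of 11 of NADPH supply. Rises were called for 6 of 13 MHC class II genes, 6 of 18 class I and immunoproteasome genes, 5 of 18 interferon gamma induced GTPases and the cholesterol exporter Abcg1. At an adjusted p under 0.05 (Benjamini-Hochberg over all 17824 genes tested), 104 genes were higher and 114 lower, 1.22% of those tested (0.583% higher and 0.64% lower). Of these 218 genes, 129 changed by more than 2-fold, and 27 genes fell by more than 4-fold against 14 that rose so far. In 154 of the 218 the libraries of the groups did not overlap, as was so for 4.97% of all tested genes (2.83% with every knockout above every control, 2.14% below). DESeq2 called 1236 genes (6.93%), among them all 218. Chromosome 11 carries the deleted gene Tbx21 (97098007 to 97115331) and also Acly (100476352 to 100528000), Fasn and Acaca. On it 24 of 1388 tested genes were called (1.73%), against 191 of 15850 on the other chromosomes (1.21%). The median log2 fold change of all tested genes was −0.04.

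How many genes were called depended on the model and on single libraries. Pairing the libraries by replicate number in place of batch called 128 genes (47 higher, 81 lower), 125 of them among the 218. Leaving out 1 library at a time called between 33 genes (without knockout replicate 1) and 131 (without control replicate 1). The count was 36 without knockout replicate 3, 54 without control replicate 4, 95 without control replicate 2, 111 without knockout replicate 4, 112 without knockout replicate 2 and 113 without control replicate 3. Without control replicate 1, 32 genes were higher (0.176% of 18148 tested) and 99 lower (0.546%), together 0.722%, and 100 of the 218 calls remained. In batch 1 alone 551 genes were higher and 68 lower, and in batch 2 alone 45 were higher and 74 lower. A set of 27 genes, 11 higher and 16 lower, kept its call whichever library was left out.

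**Figure D2:**
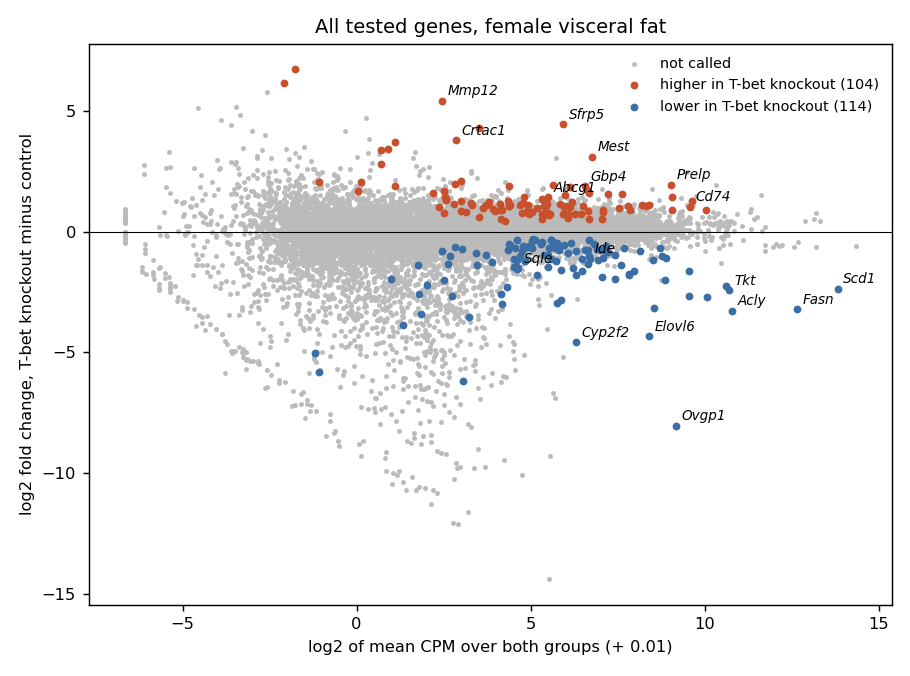
Log2 fold change (T-bet knockout minus control) of every tested gene against the log2 of its mean CPM over both groups. Grey points did not pass the test, and the 104 higher and 114 lower genes are coloured. The cloud of grey points far below 0 at low levels contains genes high in control replicate 1 alone, and the lipogenic genes are the abundant blue points at the right.

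Sequence just upstream of the transcription start is shown for some called members of the 3 groups that the results turn on. The promoters come from RefSeq on build GRCm38.p6, and 24 of the 30 called members of the fatty acid synthesis, cholesterol synthesis and class II lists had an entry. Each line gives the 120 bases before the start, 5′ to 3′ on the gene's own strand. Capitals mark CCAAT or its reverse complement ATTGG, the box bound by NF-Y, which is known to act with SREBP factors at lipid genes and with RFX and CIITA at class II genes. In H2-Eb1 and H2-DMb1 they also mark the core of the class II X box. In Fasn, a CCAAT and an ATTGG overlap. All sequences shown hold a marked box, which is not so for every called member. Acly, Acaca, Elovl6, Aacs, Me1, Slc25a1, Mid1ip1, Acat2, Pmvk and H2-DMa had none in their 120 bases. For Acaca and Acacb the 1 start listed lies far inside the gene. Their 120 bases begin at 84195318 and 114165398, and the genes at 84129635 and 114146321.
Fasn (chr11:120824548-120824667, minus strand): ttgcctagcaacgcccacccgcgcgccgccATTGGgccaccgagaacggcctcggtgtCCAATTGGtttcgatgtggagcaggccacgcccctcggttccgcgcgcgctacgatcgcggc
Thrsp (chr7:97417551-97417670, minus strand): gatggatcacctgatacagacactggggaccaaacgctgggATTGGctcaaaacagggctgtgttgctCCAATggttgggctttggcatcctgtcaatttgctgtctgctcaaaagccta
Lss (chr10:76531485-76531604, plus strand): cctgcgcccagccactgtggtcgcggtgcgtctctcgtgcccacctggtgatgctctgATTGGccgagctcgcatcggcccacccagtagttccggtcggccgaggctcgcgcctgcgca
Idi1 (chr13:8885486-8885605, plus strand): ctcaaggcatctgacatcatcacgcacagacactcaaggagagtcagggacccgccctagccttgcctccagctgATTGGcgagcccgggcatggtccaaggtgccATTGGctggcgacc
H2-Aa (chr17:34287824-34287943, minus strand): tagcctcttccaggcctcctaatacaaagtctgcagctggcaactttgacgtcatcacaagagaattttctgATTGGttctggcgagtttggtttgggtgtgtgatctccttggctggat
H2-Eb1 (chr17:34305747-34305866, plus strand): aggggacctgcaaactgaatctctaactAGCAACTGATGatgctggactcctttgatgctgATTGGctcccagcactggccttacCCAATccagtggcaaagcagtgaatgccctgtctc
H2-DMb1 (chr17:34153071-34153190, plus strand): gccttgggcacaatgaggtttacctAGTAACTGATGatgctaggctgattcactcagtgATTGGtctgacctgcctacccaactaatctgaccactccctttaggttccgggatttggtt

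Over the 250 bases before the start and both strands, CCAAT was found in 33.8% of the 32851 promoters of the table. Among promoters of called members it was found in 7 of 13 of fatty acid synthesis, 7 of 11 of cholesterol synthesis and 4 of 5 of class II, some genes having more than 1 start in the table. The X box core was found in 0.259% of all promoters, and in H2-Eb1 and H2-DMb1 of the class II genes. The E box CACGTG, found in 6.02% of promoters, was in Elovl5, Slc25a1 and Dhcr7. TCACNCCAC, a sterol response element found in 1.05% of promoters, and the interferon motifs (the stimulated response element, 2.98%, and the gamma-activated site TTCNNNGAA, 7.02%) were in none of these genes within this window. These matches describe letters, not binding.

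Fatty acid synthesis showed the most uniform fall. Of its 16 genes, 14 fell and none rose (0.64% of all tested genes fell), and the median log2 fold change was −2.12, with all 16 negative. Acly (chromosome 11, 100476352 to 100528000), which splits citrate to acetyl-CoA, was 1692, 3086, 3143 and 4963 CPM in controls and 223, 307, 235 and 591 CPM in knockouts. Every knockout was below every control, and the log2 fold change was −3.28 (SE 0.48, adjusted p = 0.0039, edgeR). Acss2, which makes acetyl-CoA from acetate, was 445 to 795 CPM in controls and 66.7 to 86.5 CPM in knockouts (−3.15, SE 0.51, adjusted p = 0.00547). Acaca, the carboxylase that makes malonyl-CoA for synthesis, was 637, 1350, 1264 and 1975 CPM in controls and 144, 213, 187 and 286 CPM in knockouts (−2.65, SE 0.40, adjusted p = 0.0039). Its mitochondrial relative Acacb fell too (−1.98, adjusted p = 0.0305), with overlap, since knockout replicate 2 at 130 CPM lay above control replicate 1 at 124 CPM.

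Fasn (chromosome 11, 120805958 to 120825166), which assembles palmitate, differed between batches as well as between genotypes. It was 2681 and 5332 CPM in batch 1 controls and 17876 and 21010 CPM in batch 2 controls, against 458 and 524 CPM and 1461 and 2362 CPM in knockouts. The groups did not overlap, and the log2 fold change was −3.20 (SE 0.59, adjusted p = 0.0146), with −3.02 in batch 1 and −3.34 in batch 2. Without knockout replicate 1 or knockout replicate 3 the adjusted p was 0.0751 or 0.068.

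Elovl6 (chromosome 3, 129532386 to 129638495), which elongates palmitate to stearate, fell furthest of the list. It was 349, 638, 501 and 1103 CPM in controls and 26.5, 26.7, 28 and 37 CPM in knockouts, so that the lowest control was far above the highest knockout. Its log2 fold change was −4.32 (SE 0.60, adjusted p = 0.0039), with −3.95 in batch 1 and −4.77 in batch 2. Scd1, the main desaturase of fat, was 6429, 40817, 13243 and 38369 CPM in controls and 4136, 3928, 3376 and 5154 CPM in knockouts. Batch 2 controls were far above batch 1 controls while the knockouts lay close together, and the log2 fold change was −2.37 in all, −1.38 in batch 1 and −3.12 in batch 2 (adjusted p = 0.00547). Scd2 was 636 to 801 CPM in controls and 116 to 219 CPM in knockouts without overlap, and missed the threshold (−2.0, adjusted p = 0.0612). Scd genes are close paralogs, so reads could be split between them.

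The remaining members were the supporting genes of the pathway and the enzymes of longer and more unsaturated chains. Me1, the malic enzyme that yields NADPH, Slc25a1, the citrate exporter of mitochondria, and Mid1ip1, an activator of acetyl-CoA carboxylase, fell by 2.71, 2.0 and 1.88 on the log2 scale (adjusted p = 0.0045, 0.0064 and 0.00584). Thrsp, a partner of Mid1ip1, and Aacs, which activates acetoacetate, fell by 2.23 and 1.77 (adjusted p = 0.0185 and 0.0198). Elovl5 and Fads1 act on polyunsaturated chains and had the smallest called falls, of 0.60 and 0.97 on the log2 scale (adjusted p = 0.0122 and 0.0428). Fads2 was 32.1 to 72.5 CPM in controls and 15.8 to 33.2 CPM in knockouts and was not called (−1.01, adjusted p = 0.422). Of the list, Elovl6, Acly, Acss2, Acaca, Scd1, Me1, Slc25a1 and Mid1ip1 kept their calls whichever library was left out. Scd1 lost its call with the 8 female libraries alone (adjusted p = 0.106, edgeR). Thrsp and Elovl5 lost theirs without knockout replicate 1 (adjusted p = 0.0878 and 0.0545) or knockout replicate 3 (0.0843 and 0.0591). Aacs and Acacb also lost theirs without control replicate 2, control replicate 4 or those knockouts, and Acacb without knockout replicate 4, with an adjusted p of up to 0.0917 and 0.119. Fads1 lost it without any 1 of the 8 libraries (adjusted p from 0.0644 to 0.16) and with the replicate block (0.0686). The list's median was −2.06 in batch 1 alone, −2.26 in batch 2 alone and −2.31 without control replicate 1.

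**Figure D3:**
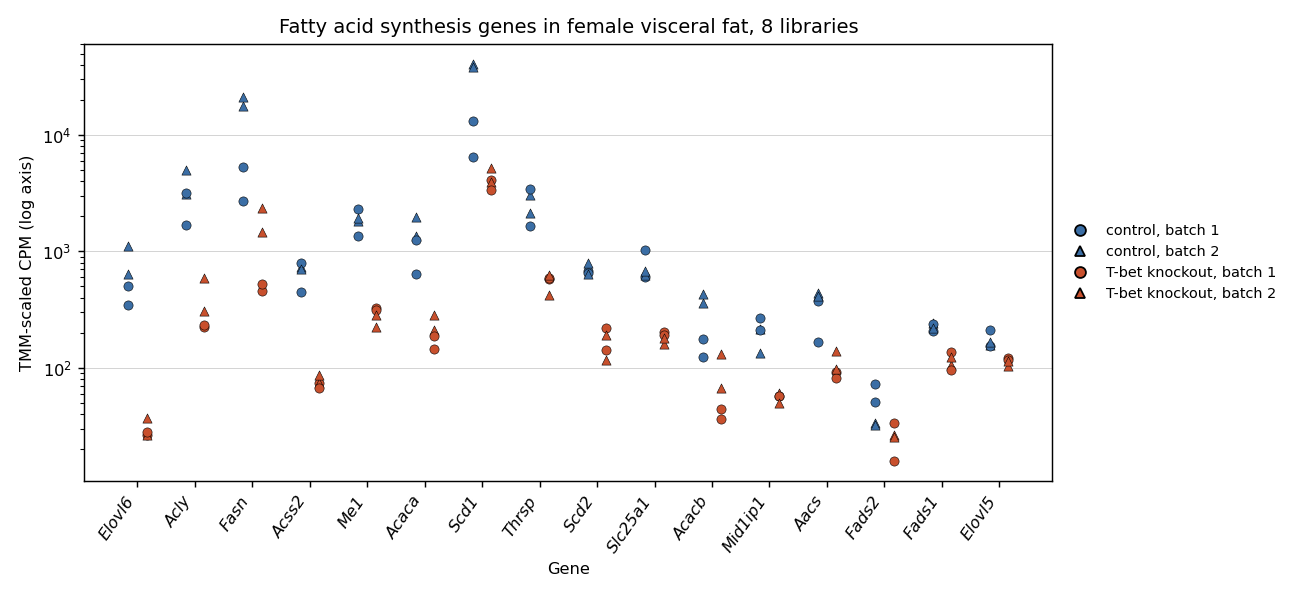
Level of the 16 fatty acid synthesis genes in each of the 8 libraries (TMM-scaled CPM, log axis; circles batch 1, triangles batch 2), ordered by log2 fold change. Knockouts lie below all controls in 14 genes, Acacb and Fads2 overlap, and batch 2 controls are highest for Fasn and Scd1.

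The marker and clock values of the same libraries were as follows. The summed adipocyte identity list was 19102 and 8820 CPM in batch 1 controls, 28470 and 39133 CPM in batch 2 controls and 29209 to 32306 CPM in knockouts. The median of its 13 genes was 0.38, with 0 called by edgeR and 1 higher by DESeq2 (2 higher at an unadjusted p under 0.05; 4 called higher in batch 1 alone, 0 in batch 2 alone). The median was 1.17 in batch 1 alone, −0.20 in batch 2 alone and 0.11 without control replicate 1. In whole tissue, fewer cells of a type and less RNA per cell cannot be told apart. Dbp, an output gene of the circadian clock, was 101 and 96.4 CPM in batch 1 controls and 12.2 and 13 CPM in batch 2 controls, against 48.5 and 48.3 CPM and 93 and 114 CPM in knockouts. Its log2 fold change was therefore −1.02 in batch 1 and 3.05 in batch 2 (1.39 together, adjusted p = 0.211), while Acly fell by 3.39 and 3.16 in the same batches. The labels used here give no time of collection or feeding, and their part in the result was not tested.

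Genes that supply NADPH and carbon to lipogenesis fell in part. In the pentose phosphate and NADPH list 3 of 11 genes fell, namely Me1, Tkt and Pgd. Tkt (chromosome 14, 30549131 to 30574724), the transketolase of the non-oxidative branch, was 1863, 2574, 3633 and 3229 CPM in controls and 454, 439, 519 and 705 CPM in knockouts. The groups were far apart, at a log2 fold change −2.42 (SE 0.35, adjusted p = 0.0039). Pgd, of the oxidative branch, fell by 1.07 on the log2 scale (adjusted p = 0.0363), while G6pdx, the branch's first enzyme, had overlapping values of 152 to 494 CPM in controls and 267 to 315 CPM in knockouts (−0.25, adjusted p = 0.718). G6pdx is named here after its values were seen. Pgd was not called without any 1 library other than control replicate 1 (adjusted p from 0.0671 to 0.114).

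Of 20 genes of glycolysis and pyruvate use, 6 fell and none rose, with a list median of −0.68. Pdhb, a subunit of pyruvate dehydrogenase, was 245, 409, 498 and 363 CPM in controls and 124, 113, 132 and 128 CPM in knockouts, without overlap (−1.61, SE 0.26, adjusted p = 0.00547). Pfkl, the liver-type phosphofructokinase, was 173 to 188 CPM in controls and 91.4 to 113 CPM in knockouts (−0.82, adjusted p = 0.0113). Both subunits of the mitochondrial pyruvate carrier fell, Mpc2 by 0.85 and Mpc1 by 1.0 on the log2 scale (adjusted p = 0.0413 for each), and so did Pkm, a pyruvate kinase, by 0.67 (adjusted p = 0.0243). Pdha1, the partner of Pdhb, fell by 1.02 (adjusted p = 0.0419, 0.0507 with the replicate block), with overlap. Pdk1, a kinase that inhibits pyruvate dehydrogenase and is in no list, fell as well (−0.90, adjusted p = 0.0275). Mpc1, Pdha1 and Pdk1 lie outside the rule for named genes and were picked after their values were seen, and reads of Mpc1 may be shared with a pseudogene. Pdhb alone of these kept its call whichever library was left out. Pfkl lost it without knockout replicate 1 (0.0651). Mpc1, Mpc2 and Pdha1 lost it without any library other than control replicate 1, Pkm without any library other than control replicate 1 or knockout replicate 3, and Pdk1 without 5 of the 8, with adjusted p up to 0.148.

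Glycogen genes were all on the low side, 12 of 12 negative with a median of −0.56, and 4 fell. Ppp1r3b, which targets a phosphatase to glycogen, was 51.9, 197, 74.5 and 87.8 CPM in controls and 8.34, 32.4, 8.2 and 11.3 CPM in knockouts. The highest knockout, replicate 2, was below the lowest control, and the log2 fold change was −2.81 (SE 0.55, adjusted p = 0.0196). The branching enzyme Gbe1 and the phosphorylase Pygl fell by 1.34 and 1.18 (adjusted p = 0.0314 and 0.0419), each with overlap. Both making and breaking of glycogen are in this group. Ppp1r3b lost its call without knockout replicates 1, 3 or 4 (adjusted p = 0.0878, 0.0895 and 0.0528). Gbe1 and Pygl lost theirs without any library other than control replicate 1, with an adjusted p of up to 0.151.

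Cholesterol synthesis fell along much of its length. Of 20 genes 10 fell and none rose, the median log2 fold change was −1.07, and 19 were negative. In the early steps Acat2, Pmvk, Mvd, Idi1 and Fdps, which lead from acetyl-CoA to farnesyl diphosphate, fell by 1.5, 1.23, 1.48, 1.12 and 1.44 on the log2 scale (adjusted p = 0.0196, 0.041, 0.0222, 0.0447 and 0.0309). Acat2 overlaps its neighbour Acat3, which the counting could mix. Sqle (chromosome 15, 59315092 to 59331193), the epoxidase that commits squalene to sterols, was 39.7, 37.1, 32.8 and 38.7 CPM in controls and 11.2, 12.1, 13.6 and 14.7 CPM in knockouts. Both groups were tight and well apart, at a log2 difference of −1.52 (SE 0.24, adjusted p = 0.00512). Lss, which closes the sterol ring, was 35.2, 69.6, 54 and 63.3 CPM in controls and 9.04, 21.2, 12.9 and 23.2 CPM in knockouts (−1.80, SE 0.34, adjusted p = 0.0185). Cyp51, Nsdhl and Dhcr7 of the later steps fell by 1.46, 1.57 and 1.0 (adjusted p = 0.0383, 0.0146 and 0.0387).

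Hmgcs1, the synthase that makes HMG-CoA, was not among them. It was 66.9 to 382 CPM in controls and 118 to 304 CPM in knockouts, with overlap (0.07, adjusted p = 0.952). Sqle kept its call whichever library was left out. Nsdhl, Lss and Acat2 lost theirs without knockout replicate 1 (adjusted p = 0.0651, 0.0891 and 0.0878) or knockout replicate 3 (0.0527, 0.0735 and 0.0894). Mvd lost its call without control replicate 3 or knockout replicate 1, 3 or 4 (up to 0.0984). Pmvk, Idi1, Fdps and Cyp51 lost theirs without any library other than control replicate 1 (up to 0.112, 0.147, 0.105 and 0.138), and Dhcr7 without any 1 of the 8 (0.0623 to 0.107). Over single libraries left out, the number of members called lower ran from 1 (without knockout replicate 1 or 3) to 9 (without control replicate 1), and it was 9 with the replicate block. The list's median was −0.84 in batch 1 alone, with 2 called, and −1.18 in batch 2 alone, with 7 called.

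Among 11 regulators of these pathways 2 fell. Mlxipl, the glucose-responsive factor ChREBP, was 172, 236, 309 and 384 CPM in controls and 53.7, 191, 74.1 and 122 CPM in knockouts, where knockout replicate 2 overlapped the controls (−1.36, SE 0.32, adjusted p = 0.0413). Insig1, the sterol-responsive anchor that retains SREBP in the endoplasmic reticulum, was 165, 528, 285 and 436 CPM against 130, 92.7, 100 and 69.5 CPM, without overlap (−1.80, SE 0.42, adjusted p = 0.0419). Srebf1, the SREBP gene of fatty acid synthesis, was 266 to 587 CPM in controls and 144 to 406 CPM in knockouts and was not called (−1.02, adjusted p = 0.112). Mlx, the partner of ChREBP, was 42.6 to 66.2 CPM in controls and 31.5 to 35.1 CPM in knockouts and missed the threshold (−0.73, adjusted p = 0.0539). Insig1 lost its call with the replicate block (0.057) and without any library other than control replicate 1. Mlxipl lost its call without 6 of the 8 libraries, all but control replicate 1 and knockout replicate 2, with an adjusted p of up to 0.159.

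No gene passed the test by edgeR in the lists of triglyceride synthesis (11 genes, median −0.29), lipolysis and lipid droplets (13 genes, 0.28), fatty acid uptake (9 genes, 0.43), insulin signalling and glucose uptake (15 genes, 0.00) or oxidative phosphorylation (27 genes, −0.21). At an unadjusted p under 0.05 they held 4, 3, 2, 4 and 3 genes in this order, and DESeq2 called 2, 2, 1, 1 and 0. In batch 1 alone 2 triglyceride, 2 lipolysis and 3 uptake genes were called higher, and in batch 2 alone none of the 5 lists had a call. The medians of uptake and lipolysis genes were 1.60 and 0.85 in batch 1 alone against −0.02 and 0.03 in batch 2 alone, and 0.09 and 0.05 without control replicate 1. Cpt1a, which admits fatty acids to mitochondria for oxidation, was the 1 called gene of 16 in its list and rose, from 62.7, 73.3, 50.1 and 74.5 CPM to 85.3, 149, 82.8 and 127 CPM. Every knockout was above every control (log2 fold change 0.74, SE 0.14, adjusted p = 0.0146), and the call was lost without control replicate 4 (0.0589) or knockout replicate 1 (0.0513). Lep, the hormone leptin, was 184, 790, 371 and 543 CPM in controls and 1207, 1000, 1990 and 804 CPM in knockouts, without overlap but not called (1.46, adjusted p = 0.0947; 2.53 in batch 1 and 0.44 in batch 2). Pnpla3, a lipid droplet hydrolase, and Gpd2, the mitochondrial glycerol phosphate dehydrogenase, are outside the rule and fell by 1.62 and 1.63 (adjusted p = 0.047 and 0.0146), with overlap. Gpd2 lost its call without control replicate 4, knockout replicate 1 or knockout replicate 3 (up to 0.0775), and Pnpla3 without any library other than control replicate 1.

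Abcg1 (chromosome 17, 31057694 to 31117984), an exporter of cholesterol to high-density lipoprotein and a target of the liver X receptors, had the smallest p of all genes. It was 33, 16.1, 29.9 and 20.8 CPM in controls and 70.4, 62.1, 64.9 and 65 CPM in knockouts. Knockouts lay within a narrow range above every control, and the log2 fold change was 1.42 (SE 0.16, adjusted p = 0.000676). It was 1.12 in batch 1, 1.79 in batch 2 and 1.56 without control replicate 1, and the adjusted p stayed at or below 0.00481 with any library left out. It was the 1 gene of 11 called by edgeR in the list of cholesterol uptake and efflux. That list had a median of −0.12, with 2 genes higher and 3 lower at an unadjusted p under 0.05. DESeq2 called 1 of its genes higher and 1 lower. Abca1, another exporter under the same receptors, was 117 to 345 CPM in controls and 172 to 341 CPM in knockouts (0.08, adjusted p = 0.875), and Nr1h3, the receptor LXR alpha, was 38.4 to 104 CPM against 91.2 to 127 CPM (0.55, adjusted p = 0.345). Both were looked up after the value of Abcg1 was seen.

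Ide (chromosome 19, 37268743 to 37334544), which encodes insulin-degrading enzyme, had the smallest p among genes that fell. It was 105, 156, 144 and 163 CPM in controls and 60.9, 72.8, 50.2 and 78.6 CPM in knockouts, without overlap (−1.12, SE 0.14, adjusted p = 0.000831, and at most 0.0108 with any library left out). Cyp2f2, a cytochrome P450, was 120, 352, 36.7 and 98.5 CPM in controls and 5.24, 14, 0.659 and 6.77 CPM in knockouts. The groups did not overlap, though the spread within each was wide (−4.58, SE 0.93, adjusted p = 0.0241). Its call was lost without control replicate 2, knockout replicate 1, knockout replicate 3 or knockout replicate 4 (adjusted p from 0.0579 to 0.0984). H2-Q10, a secreted class I molecule, fell by 2.99 (adjusted p = 0.027), whereas H2-Q4 and H2-Q6 of the same family rose. It belongs to a family of near-identical genes, so its counts are uncertain, and its call was lost without control replicate 4 or knockout replicates 1, 3 or 4 (up to 0.105). Tmem79, picked after its value was seen, was 35.9, 23.7, 45.6 and 18.1 CPM in controls and 6.03, 5.95, 5.2 and 2.42 CPM in knockouts (−2.60, adjusted p = 0.0039).

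Other large falls rested on control replicate 1. Ovgp1, the oviduct glycoprotein, was 4629 CPM in that library, 2.67 to 3.78 CPM in the other controls and 2.22 to 4.98 CPM in knockouts. Its log2 fold change was −8.04 (adjusted p = 0.0413) with the library and 0.17 (adjusted p = 0.875) without it. Ttc25, of cilia, was 46.5 CPM there, 5.79 to 9.18 CPM in the other controls and 0.785 to 2.33 CPM in knockouts. It remained lower without that library but not called (−2.08, adjusted p = 0.162, against −3.54 and 0.047 with it). The motile cilia list, of which Ttc25 is the 1 called gene among 18, had a median of −6.13 with control replicate 1 and 0.29 without it.

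MHC class II genes, which present antigen to helper T cells, rose. Of 13 genes 6 rose and none fell (0.583% of all tested genes rose), and the median log2 fold change was 1.07. H2-Aa (chromosome 17, 34282744 to 34287823), the alpha chain of I-A, was 250, 210, 206 and 175 CPM in controls and 639, 357, 589 and 269 CPM in knockouts. Its groups did not overlap, and the batch 1 knockouts were the highest (1.11, SE 0.22, adjusted p = 0.0227; 1.44 in batch 1 and 0.70 in batch 2). H2-Ab1, the beta chain, had nearly the same values, 140 to 206 CPM in controls and 209 to 558 CPM in knockouts (1.11, adjusted p = 0.0223). H2-Eb1 and the invariant chain Cd74 rose by 1.06 and 1.03 (adjusted p = 0.0363 and 0.0326), and for both the lowest knockout, replicate 4, was below the highest control, replicate 1.

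The peptide loaders of the class II pathway rose with them. H2-DMa was 16.2, 17.8, 18.1 and 13.8 CPM in controls and 51.1, 30.3, 52.3 and 20.4 CPM in knockouts, without overlap (1.18, SE 0.21, adjusted p = 0.0115), and its partner H2-DMb1 rose by 1.09 (adjusted p = 0.0413). Ciita, the coactivator of class II genes, was 4.88 to 15.3 CPM in controls and 11.3 to 30.3 CPM in knockouts and was not called (1.07, adjusted p = 0.0905). Rfx5, of the factor that binds the X box, was 21.6 to 27.5 CPM against 20.1 to 33.1 CPM (0.01, adjusted p = 0.98).

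All 6 class II calls depended on single libraries. H2-DMa lost its call without knockout replicate 1 or 3 (0.0583 and 0.0533), and H2-Aa and H2-Ab1 lost theirs also without control replicate 3 or 4 (up to 0.0984). H2-Eb1, Cd74 and H2-DMb1 lost theirs without any control library or knockout replicate 1 or 3, and with the replicate block (0.0507, 0.0504 and 0.0649). H2-Eb1 lost it also without knockout replicate 2 (0.0526). The number of members called higher was 3 with the replicate block and without control replicate 1, 6 in batch 1 alone and 0 in batch 2 alone, where the list's median was 0.66 against 1.39 in batch 1. The summed level of the list was 1027 to 1442 CPM in controls, 3454 and 3515 CPM in batch 1 knockouts and 1456 and 1987 CPM in batch 2 knockouts.

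**Figure D4:**
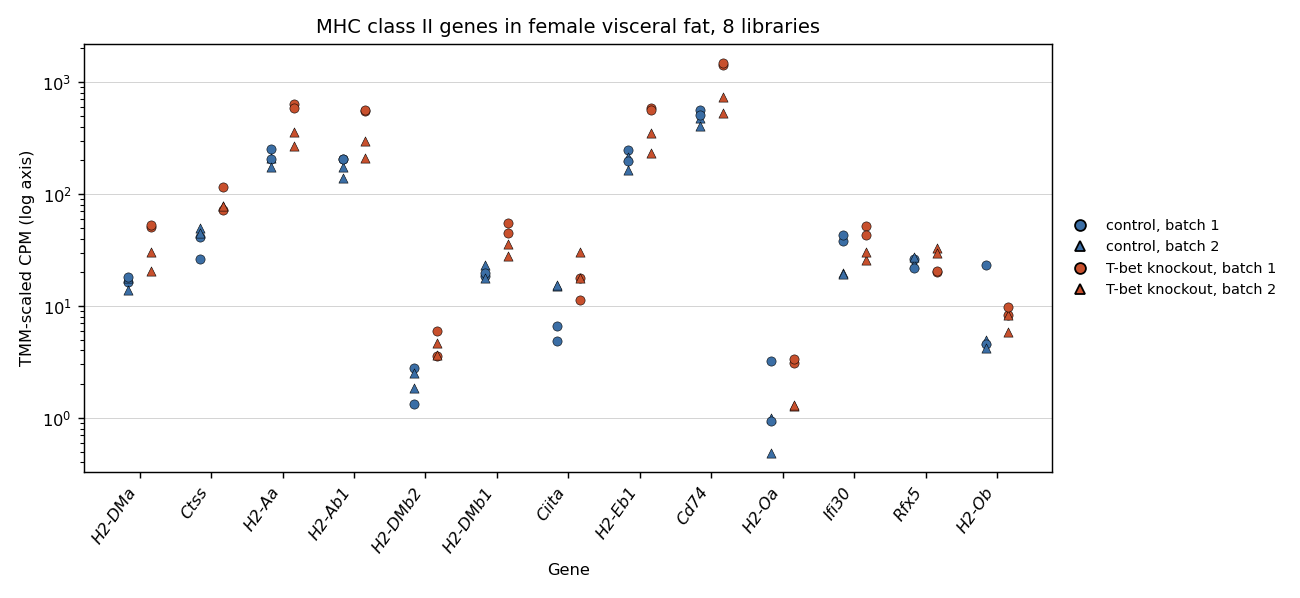
Level of the 13 genes of the MHC class II pathway in each of the 8 libraries (TMM-scaled CPM, log axis; circles batch 1, triangles batch 2), ordered by log2 fold change. Batch 1 knockouts are highest for H2-Aa, H2-Ab1, H2-Eb1, Cd74, H2-DMa and H2-DMb1, and Rfx5 overlaps throughout.

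Class I presentation and interferon-induced genes rose in part. Of 18 genes of class I and the immunoproteasome, 6 rose and all 18 were positive, with a median of 0.84. Tap1, which pumps peptides into the endoplasmic reticulum, was 39.6, 53.4, 38.6 and 39.5 CPM in controls and 90.7, 160, 107 and 49.4 CPM in knockouts. Knockout replicate 4 overlapped control replicate 2 (1.25, SE 0.29, adjusted p = 0.0413). The others were the immunoproteasome subunits Psmb8 and Psmb9 (1.04 and 1.07), the class I coactivator Nlrc5 (1.16) and the class I genes H2-Q4 and H2-Q6 (1.08 and 1.54), whose close paralogs make their counts uncertain. Psmb8 and Nlrc5 lie outside the rule. The 6 adjusted p-values lay between 0.0281 and 0.0462, and no member was called without control replicate 1 (median 0.73) and 1 with the replicate block. In batch 1 alone 15 were called and in batch 2 alone 0.

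Of 18 interferon gamma induced GTPases, which act in defence inside cells, 5 rose, all 18 were positive and the median was 1.31. Gbp4 was 28.1, 58.3, 25.9 and 51.5 CPM in controls and 95.1, 294, 126 and 81.8 CPM in knockouts. All knockouts were above all controls, and the highest was knockout replicate 2 (1.89, SE 0.37, adjusted p = 0.0196). Gbp5, Gbp9, Tgtp1 and Tgtp2 rose by 1.36, 1.13, 1.85 and 1.89 (adjusted p = 0.0247, 0.0387, 0.0275 and 0.0325). Tgtp1 and Tgtp2 are near-identical, and so are several Gbp genes, so reads may have been split between them. Gbp9 lies outside the rule. The list's median was 1.38 in batch 1 alone, with 14 members called higher, and 1.10 in batch 2 alone, with 0 called. Without control replicate 1 the median was 1.41 and 1 member was called, and 3 were called with the replicate block. Gbp4 lost its call without control replicate 3 or 4 or knockout replicate 2 or 3 (up to 0.0681).

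Ubd, a ubiquitin-like protein induced by interferon gamma, was 1.04, 2.81, 0.755 and 1.47 CPM in controls and 37.9, 11.4, 31 and 5.66 CPM in knockouts. Batch 1 knockouts were the highest and the groups did not overlap (4.30, SE 0.95, adjusted p = 0.0358; 0.0505 with the replicate block). Its call was lost without any control library or knockout replicate 1 or 3 (up to 0.105). It was the 1 called of 14 genes of the interferon gamma pathway (median 0.64). Irf1, a first responder of that pathway, was 57.1 to 88.7 CPM in controls and 99.6 to 151 CPM in knockouts and missed the threshold (0.79, adjusted p = 0.0508). Type I interferon response genes had 0 of 25 called by edgeR, 6 higher at an unadjusted p under 0.05 and 3 higher by DESeq2, with a median of 0.45.

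Complement had 2 of 18 genes higher and a median of 0.79. C4b, a component of the classical pathway, was 128, 476, 443 and 783 CPM in controls and 778, 1610, 569 and 1554 CPM in knockouts, with overlap (1.29, adjusted p = 0.0413). Serping1, the C1 inhibitor, was 292 to 490 CPM in controls and 567 to 860 CPM in knockouts (0.88, adjusted p = 0.0387). Neither was called without control replicate 1 (0.0519 and 0.0894) or with the replicate block (0.061 and 0.0579). C4b also lost its call without any other library except control replicate 3 (up to 0.111). Serping1 also lost its call without any other library except control replicate 3 or knockout replicate 2 (up to 0.119). Several genes of phagocyte signalling were called higher and were picked after their values were seen. Cybb and Ncf1, of the phagocyte oxidase, rose by 1.08 and 0.88, the kinases Syk and Btk by 0.98 and 1.16 and the receptor Clec7a by 1.24 (adjusted p between 0.0281 and 0.0486). Ncf1 was 10.8 to 15 CPM in controls and 22.7 to 24.9 CPM in knockouts, without overlap. None of these 5 was called without control replicate 1 (adjusted p from 0.0708 to 0.125), and Cybb alone was called with the replicate block (0.0421).

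The lists of macrophages, pan T cells, type 1 lymphocytes and regulatory T cells had positive medians and no called genes by edgeR over both batches. In batch 1 alone 5 macrophage, 2 pan T cell, 3 type 1 lymphocyte and 0 regulatory T cell genes were called higher, and in batch 2 alone none of these 4 lists had a call. At an unadjusted p under 0.05, 12 macrophage, 6 pan T cell and 8 type 1 lymphocyte genes were higher, and DESeq2 called 7, 0 and 3. Macrophage genes had a median of 0.76 (0 of 19 called; 1.29 in batch 1 and 0.46 in batch 2), and their summed level was 358 to 1272 CPM in controls and 1124 to 1833 CPM in knockouts. Pan T cell genes had a median of 1.0 (0 of 19 called), 1.68 in batch 1 and −0.21 in batch 2. Their summed level was 142 and 146 CPM in batch 1 knockouts and 43.4 and 55.9 CPM in batch 2 knockouts, against 42.9 to 71.7 CPM in controls. Type 1 and cytotoxic lymphocyte genes went the same way (0.93; 1.57 in batch 1 and 0.16 in batch 2), and regulatory T cell genes had a median of 0.47 with 0 of 16 called by edgeR (4 at an unadjusted p under 0.05, 1 by DESeq2). Dendritic cell genes had a median of 0.43 (0 of 13 called by edgeR, 5 higher at an unadjusted p under 0.05, 1 by DESeq2). Their summed level was 349 and 327 CPM in batch 1 knockouts, 218 and 229 CPM in batch 2 knockouts and 113 to 221 CPM in controls. B cell and plasma cell genes had a median of 0.39 (0 of 16 called), with sums of 785 to 918 CPM in knockouts and 625 to 1443 CPM in controls. The summed level of muscle, pancreas and blood genes was also highest in batch 1 knockouts, 1766 and 1150 CPM against 139 to 673 CPM in the other 6 libraries. The part of these other cells in the rise of the antigen presentation genes was not tested.

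**Figure D5:**
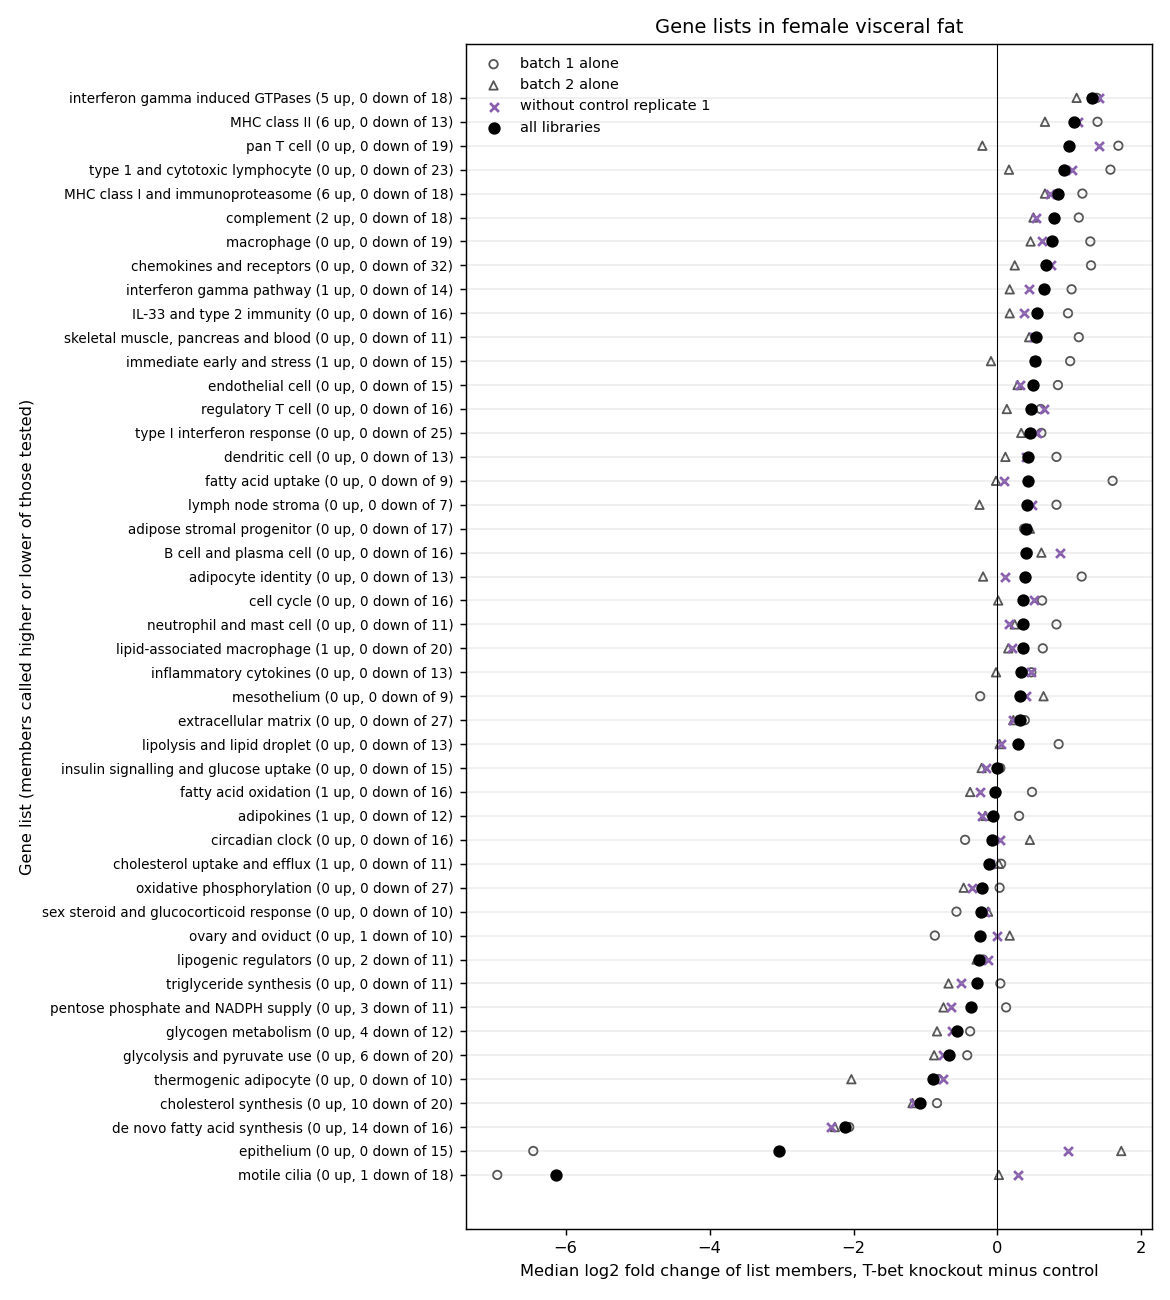
Median log2 fold change of the tested members of each gene list (black), with the same in batch 1 alone (circles), in batch 2 alone (triangles) and without control replicate 1 (crosses); labels give the members called. Fatty acid and cholesterol synthesis lie at −2.12 and −1.07 with little spread, while epithelium and motile cilia move from far below 0 to above it once control replicate 1 is left out.

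Mest (chromosome 6, 30733506 to 30748466), an imprinted gene that rises with adipocyte expansion, was 22.4, 15.4, 17.2 and 37.7 CPM in controls and 91.8, 313, 264 and 114 CPM in knockouts. Its lowest knockout was more than 2 times its highest control (3.10, SE 0.52, adjusted p = 0.0064). Sfrp5 (chromosome 19, 42197971 to 42202252), a secreted inhibitor of Wnt signalling, was 2.96, 4.6, 6.1 and 6.58 CPM in controls and 122, 21.1, 265 and 61.1 CPM in knockouts, all above the controls (4.45, SE 0.81, adjusted p = 0.0137). Bmp3, a growth factor of the BMP family, rose by 1.94 (adjusted p = 0.0146), with 2.99 in batch 1 and 1.07 in batch 2. Npr3, the clearance receptor of natriuretic peptides, lies outside the rule and was 112 to 537 CPM in controls and 633 to 863 CPM in knockouts (1.42, adjusted p = 0.0281). Mest and Sfrp5 kept their calls whichever library was left out. Bmp3 lost its call without control replicate 4 (0.0522) or knockout replicate 3 (0.0656), and Npr3 without control replicate 3 or 4 or knockout replicate 1 or 3 (up to 0.101).

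Prelp (chromosome 1, 133910304 to 133930102), a leucine-rich matrix proteoglycan, was 172, 207, 281 and 216 CPM in controls and 836, 772, 979 and 752 CPM in knockouts. Groups were tight and far apart in both batches (1.94, SE 0.28, adjusted p = 0.0039; 2.01 in batch 1 and 1.85 in batch 2). Crtac1, a matrix protein of cartilage, was 1.16, 1.78, 0.252 and 0.903 CPM in controls and 14.5, 8.52, 19.9 and 10.7 CPM in knockouts (3.78, SE 0.61, adjusted p = 0.00547). Svep1, a large adhesion protein, was 20.2, 79.6, 32.7 and 69.3 CPM in controls and 130, 153, 129 and 174 CPM in knockouts (1.73, SE 0.30, adjusted p = 0.00805). In all 3 genes the groups did not overlap and the call held with any library left out. In a fit of the 8 female libraries alone, Crtac1 and Svep1 were not called (adjusted p = 0.057 and 0.0516, edgeR). Thbs2 and Fbln5, chosen after their values were seen, rose by 1.56 and 1.07 (adjusted p = 0.0419 and 0.0362). They were not called without control replicate 1 (0.0974 and 0.0696) or with the replicate block (0.0627 and 0.0503). Thbs2 also lost its call without any other library except control replicate 3 (up to 0.105), and Fbln5 without any single library (up to 0.0972). The extracellular matrix list had 0 of 27 called by edgeR, 4 higher at an unadjusted p under 0.05 and 1 by DESeq2, with a median of 0.31.

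A few rises came from genes that were nearly absent in controls. Mageb18, an X-linked gene of the MAGE family, had 0 counts in all 4 controls and 47 counts over the 4 knockouts, from 0.35 to 0.988 CPM. Against a floor of 3 counts over the control group it was at least 22.6-fold higher (adjusted p = 0.00512). Mmp12, the macrophage elastase, was 0.116, 0.396, 0.126 and 0.639 CPM in controls and 19.6, 1.17, 13.9 and 7.68 CPM in knockouts, above the controls in all 4 but only just in replicate 2 (5.43, SE 1.22, adjusted p = 0.0381). It was the 1 called of 20 genes of lipid-associated macrophages, and its call was lost with the replicate block (0.0539) and without any control library or knockout replicate 1 or 3 (up to 0.107). Gabrr2, a GABA receptor subunit, was 0.15 to 0.357 CPM in controls and 1.52 to 9.15 CPM in knockouts (3.70, SE 0.56, adjusted p = 0.00395). Rad50, of the complex that senses DNA breaks, was well expressed in both groups, at 24.5, 70, 23.3 and 62.9 CPM in controls and 61.5, 108, 57.2 and 122 CPM in knockouts. It overlapped across batches and not within either of them (1.05, SE 0.17, adjusted p = 0.00547).

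Some cochaperone genes, noticed after their values were seen, were among the smaller falls. Dnaja1 was 176, 138, 151 and 136 CPM in controls and 109, 79.5, 86.2 and 87.5 CPM in knockouts, without overlap (−0.73, SE 0.12, adjusted p = 0.0073), and kept its call with any library left out. Stip1, Fkbp4 and Chordc1 fell by 0.51, 0.76 and 0.59 (adjusted p = 0.0243, 0.0325 and 0.031), also without overlap. Stip1 and Fkbp4 were not called without control replicate 1 (0.0549 and 0.0932), control replicate 4 or any 1 knockout library (up to 0.0878 and 0.0972). Chordc1 kept its call only with control replicate 1 left out (0.0394), and had up to 0.1 without any of the others.

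The same deletion in males gives the question of whether its effect depended on sex. The difference between the effect in females and in males passed the test for 1 gene, Abcg1 (0.00561% of genes tested; 2050 had an unadjusted p under 0.05, and DESeq2 called 236). Abcg1 averaged 24.9 ± 7.88 CPM in control females and 65.6 ± 3.50 CPM in knockout females, against 50.1 ± 8.59 and 47.3 ± 6.15 CPM in males (SD, n = 4 each). The effect in females was 1.5 larger on the log2 scale (SE 0.23, adjusted p = 0.0405, edgeR). With 1 female library left out it was called only without control replicate 1 (1.63, adjusted p = 0.0105, 8 genes called). Without any other female library the adjusted p lay between 0.0578 and 0.197 and no gene was called, and with the replicate block it was 0.107. For Elovl6 the means were 647 ± 326 and 29.6 ± 4.99 CPM in females and 45.3 ± 35.6 and 45.1 ± 21.7 CPM in males, a difference of −4.51 (SE 0.78) that missed the threshold (adjusted p = 0.0979). Acly, Tkt and Prelp had differences of −3.39, −2.50 and 2.06 with the same adjusted p. In these genes the control females lay apart from the other 3 groups or, for Prelp, below the males, which averaged 1702 ± 255 and 1592 ± 418 CPM. Other genes differed from this. Scd1 averaged 24715 ± 17432 and 4148 ± 743 CPM in control and knockout females and 21303 ± 7516 and 20052 ± 3791 CPM in males. There the knockout females were the low group, and the difference was −2.33 (SE 0.52, adjusted p = 0.153, edgeR). Ide was lower in knockouts of both sexes, 66.6 ± 12.7 against 122 ± 8.91 CPM in males, and the difference between the sexes was −0.23 (SE 0.19, adjusted p = 0.663).

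Deleting Pparg in the same cells gives another knockout of the same sex. No gene passed the test between T-bet and Pparg knockout females by edgeR (0% of genes tested), where 855 genes had an unadjusted p under 0.05 and DESeq2 called 104. Without control female replicate 1, which enters that fit through the shared spread and filter, 7 genes were called. Elovl6 averaged 309 ± 194 CPM in Pparg knockouts and 29.6 ± 4.99 CPM in T-bet knockouts (−3.57, SE 0.58, adjusted p = 0.0521), and Tkt 2224 ± 1354 and 529 ± 122 CPM (−2.06, SE 0.35, adjusted p = 0.0521). Sqle averaged 33.1 ± 12.7 and 12.9 ± 1.57 CPM (−1.38, SE 0.24, adjusted p = 0.0585). Mest, at 248 ± 218 and 196 ± 110 CPM, and Ide, at 76.0 ± 6.51 and 65.6 ± 12.6 CPM, had differences of −0.20 (SE 0.48) and −0.24 (SE 0.14), both with an adjusted p of 1. The median difference was −1.83 for fatty acid synthesis genes and 0.24 for class II genes. A difference that misses the threshold does not show that the knockouts act alike.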

How the data were processed

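RNA sequencing counts of 8 female visceral fat libraries were analysed within all 24. The authors deposited 1 table of raw counts for 27179 genes, counted by featureCounts; the submitters' processing notes name builds GRCm38 and mm10. Aligner, annotation, strand setting and versions: not given in the sources used here. Libraries were made from total RNA extracted with a lipid tissue kit and a TruSeq RNA kit, per the labels' protocols. Genes without a symbol (3.79%, holding 0.433% of counts) stayed in the tests. The authors also deposited log2 FPKM values per library, which served 1 alternative only; limma is among the tools in their notes. Counting intervals are not given, since reads are not independent molecules.

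In R 4.3.3, genes were kept by filterByExpr (17824), scaled by TMM and tested with edgeR 4.0.16 (robust quasi-likelihood, 6 groups and batch over 24 libraries, 17 residual degrees of freedom, biological coefficient of variation 0.404), with Benjamini-Hochberg adjustment and a call under 0.05. The steps were tested on simulated data. SE is the log2 fold change divided by the root of its F statistic. Alternatives used DESeq2 1.42.0, limma 3.58.1, other scalings, filters and batch terms, single batches and libraries left out. Both knockouts share the control females.

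Same-numbered control and knockout libraries deviated together from their group means (correlations 0.14, 0.21, 0.318 and 0.43). So did differently numbered libraries of the same batch (0.133, 0.261, 0.429 and 0.278 for control replicates 1 to 4). Each number falls in 1 batch, so these correlations do not show a pairing by number beyond batch. The replicate block served as an alternative only. The numbers 1 to 4 come from the descriptions; the titles number libraries 1 and 2 within each batch. With batch removed the correlations of same-numbered libraries were 0.0506, −0.0628, −0.127 and 0.194. Blocked values are given where they change a call or a count.

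Named genes are Tbx21, Foxp3 and Pparg, the 12 largest rises and falls that passed the test and averaged a log2 CPM of 1 or more, the 5 smallest p-values each way, all members of 3 lists and up to 4 of each other list; some are not reported here but remain in all counts. The members and the 46 lists (700 genes, 675 tested) were chosen with earlier results of these data known. Positions and promoters come from RefSeq tables on GRCm38.p6, matched to 25275 genes by Entrez identifier.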

Additional observations from a re-analysis of the deposited data

Results flagged for a closer look

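In a group of 4 libraries, a single library was marked when its gap to the nearest of the others passed Dixon's 95% critical value as a share of the group's range. Chance marks about 1 in 20 groups this way. The number of groups examined is not given, so the marks below cannot be told from chance. Among control females, replicate 1 stood out for Ovgp1 (4629 CPM, others 2.67 to 3.78) and Ttc25 (46.5 CPM, others 5.79 to 9.18). Control replicate 2 stood out for interferon-induced genes, with Tgtp1 at 53.2 CPM (others 22.4 to 24.4), Tap1 at 53.4 CPM (others 38.6 to 39.6) and Psmb9 at 37.6 CPM (others 23.8 to 25.4). Among knockouts, replicate 2 stood out for Gbp5 at 97.1 CPM (others 39.7 to 48.9), Nlrc5 at 141 CPM (others 52.1 to 55.4), Ppp1r3b at 32.4 CPM (others 8.2 to 11.3) and Ucp1 at 3.5 CPM (others 0.0732 to 0.303). This is the shallowest library, with 8345575 counts. Knockout replicate 4 was highest for Elovl6, at 37 CPM (others 26.5 to 28), still below every control.

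The effect of the knockout on Abcg1 was 1.5 larger in females than in males on the log2 scale (adjusted p = 0.0405 by edgeR's test of the difference). By the same test the difference was not called without any 1 female library other than control replicate 1 (adjusted p from 0.0578 to 0.197). Nor was it called without a batch term (0.168).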

How the results depend on the processing

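Against 218 called genes (104 higher, 114 lower), the count was 66 with the 8 female libraries alone (16 higher, 50 lower), 115 without the filter on low counts (48 and 67), 28 without a batch term (11 and 17), 619 within batch 1 (551 and 68), 119 within batch 2 (45 and 74), 128 with the replicate block (47 and 81), 474 with limma voom (339 lower), 1236 with DESeq2 (541 and 695) and 340 with limma on the deposited log2 FPKM (208 higher). Higher calls made up 47.7% of the 218, 24.2% with the 8 libraries alone, 89% in batch 1 alone, 28.5% with voom and 61.2% on log2 FPKM. Scaling by size factors or upper quartiles called 233 and 240. Taking the batch of control replicate 1 from its source name called 177 (74 higher and 103 lower), 147 of them among the 218. Leaving out 1 library gave 33 to 131 genes, 12 to 70 higher and 17 to 99 lower.

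Members called lower in fatty acid synthesis (14) numbered 9 without a batch term, 8 in batch 1 alone and 8 to 13 with 1 library left out. For cholesterol synthesis (10) they numbered 2 without a batch term, 2 in batch 1 alone and 1 to 9. Class II members called higher (6) numbered 0 with the 8 libraries alone, 1 without a batch term, 0 in batch 2 alone, 3 with the replicate block and 0 to 7.

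The difference between sexes (1 gene) gave 0 with size factors, upper quartiles, no batch term, the source name's batch or the replicate block, 183 in batch 1, 2 in batch 2, 13 with voom, 236 with DESeq2, 9 on log2 FPKM and 0 to 8 with 1 library left out. The T-bet against Pparg comparison (0 genes) gave 3 with upper quartiles, 34 in batch 1, 3 in batch 2, 5 with the replicate block, 7 with voom, 104 with DESeq2, 9 on log2 FPKM and 0 to 7. Among fits of single named genes, 1466 kept their side of the threshold, 668 lost it, 23 passed it and 1 reversed, and 62 of the list medians moved by more than their spread while 858 did not. Ovgp1 reversed without control replicate 1; its log2 fold change ran from −8.60 to 0.17 over single libraries left out. The cause of these changes was not tested. Within 1 batch each group has 2 libraries, and knockout replicates 2 and 4 are the shallowest, which limits genes of low level such as Tbx21 and Foxp3.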

Other observations

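Thermogenic adipocyte genes centred on −0.90 (log2 fold change), with 0 of 10 called by edgeR (5 lower at an unadjusted p under 0.05, 3 by DESeq2). Ucp1, the uncoupling protein of brown and beige fat, was 9.4, 13.2, 0 and 25.6 CPM in controls and 0.206, 3.5, 0.0732 and 0.303 CPM in knockouts (adjusted p = 0.145). Adipose progenitor genes had a median of 0.40 (0 of 17 called), endothelial genes 0.49 (0 of 15), mesothelial genes 0.31 (0 of 9) and cell cycle genes 0.36 (0 of 16). Of these 4 lists edgeR called none, while 5, 6, 1 and 2 members were higher at an unadjusted p under 0.05 and DESeq2 called 2, 1, 0 and 0.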
